A study of Mus musculus with 7 samples.

Results

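The 45 genes described here encode proteins of the cell division cycle. They comprise 33 genes of mitosis, 7 genes of replication licensing and the replication clamp, and 5 G1 cyclins. They were taken by name from a table of 30590 rows that holds RNA levels in differentiating mouse embryonic stem cells. All 45 were present and all 45 were among the 21813 genes tested. The Bry-GFP mouse embryonic stem cell line was sampled on 4 days in 7 libraries of polyadenylated RNA, 2 each on days 0, 2 and 4 and 1 on day 6. On day 0 the cells had grown on mouse embryonic feeder cells with fetal bovine serum and 1000 U/mL of the cytokine LIF. For day 2 they were removed from the feeders and kept for 48 hours in serum-free suspension at 75000 cells per mL, where they form aggregates called embryoid bodies. Day 4 followed 48 hours with 3 factors, which were Noggin (150 ng/mL), Wnt3a (25 ng/mL) and Activin A (9 ng/mL), the step that induces primitive streak. Day 6 followed 48 further hours with bFGF at 10 ng/mL. All libraries came from this single line, and time, medium and factors changed together from day to day, so their parts in a change cannot be told apart.

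Embryonic stem cells divide fast and have a short G1 phase, in which D-type cyclins with CDK4 or CDK6, and then E-type cyclins with CDK2, drive the cell towards DNA synthesis. The MCM helicase is loaded on replication origins in G1, which licenses them, and PCNA clamps the polymerases to DNA in S phase. Mitotic genes are read mainly in G2 and M: cyclin B with CDK1 starts mitosis, kinetochore and checkpoint proteins hold chromosomes on the spindle until the anaphase-promoting complex releases them, and midzone proteins complete cytokinesis. Many mitotic promoters carry a CHR element (cell cycle genes homology region), bound by complexes that hold the MuvB core, together with CCAAT boxes bound by NF-Y. Many replication promoters carry E2F sites.

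These motifs were looked for in promoter windows of 300 bases (250 before and 50 after the transcription start) from RefSeq on GRCm38.p6, on both strands. A window was found for 36 of the 45 genes. Ccna2, Aurkb, Tpx2, Kif20a, Incenp, Mcm4, Ccnd1, Ccnd2 and Ccne2 had none. A CHR element, spelled TTTGAA or in its other form TTCGAA, lay in the windows of 22 of 28 mitotic genes, 2 of 6 licensing and clamp genes and 0 of 2 G1 cyclins, and in 19.2% of the 32851 windows of all genes. Within 30 bases before to 50 bases after the start, a range chosen after the positions were seen, it was found in 21 of 28 mitotic genes, 0 of 6 licensing and clamp genes and 4.14% of all windows. The CCAAT box was found in 22 of 28 mitotic genes and 6 of 6 licensing and clamp genes, against 37.4% of all windows. An E2F site, spelled TTCCCGC in its first form, TTCGCGC in another, and with an inner G as TTGCCGC or in the last form TTGGCGC, was found in 5 of 28 mitotic genes and 4 of 6 licensing and clamp genes, against 9.57% of all windows. A match is a description of the letters only.

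The 3 mitotic promoters below belong to genes with different courses, since Top2a and Prc1 rose by day 2 and Cdc20 fell on day 6. Each stretch is the 170 bases before the RefSeq start, written on the gene's strand, with the CHR element and CCAAT boxes of either strand in capitals. Top2a (topoisomerase II alpha, which untangles chromosomes) is at chr11:99024190-99024359 on the minus strand, Prc1 (which bundles midzone microtubules) at chr7:80294306-80294475 on the plus strand and Cdc20 (which activates the anaphase-promoting complex) at chr4:118437344-118437513 on the minus strand. The CHR element nearest to the start began 23 bases before it in Top2a, 30 in Prc1 and 18 in Cdc20.
Top2a: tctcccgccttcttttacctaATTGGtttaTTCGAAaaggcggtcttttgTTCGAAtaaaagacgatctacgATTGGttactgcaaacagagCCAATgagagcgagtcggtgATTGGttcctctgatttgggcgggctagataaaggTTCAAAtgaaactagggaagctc
Prc1: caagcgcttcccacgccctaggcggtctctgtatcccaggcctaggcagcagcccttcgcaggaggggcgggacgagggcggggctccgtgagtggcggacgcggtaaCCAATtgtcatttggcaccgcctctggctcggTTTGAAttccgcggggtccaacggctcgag
Cdc20: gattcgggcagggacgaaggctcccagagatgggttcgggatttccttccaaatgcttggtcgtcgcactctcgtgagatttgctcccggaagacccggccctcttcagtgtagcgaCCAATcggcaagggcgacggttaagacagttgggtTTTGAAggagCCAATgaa

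The promoters of Mcm5 and Mcm6, subunits of the MCM helicase, are shown for contrast, because their CCAAT boxes stand beside E2F sites in place of a CHR element. Capitals mark the E2F sites and CCAAT boxes of either strand. The stretches are chr8:75109339-75109508 on the plus strand for Mcm5 and chr1:128359706-128359875 on the minus strand for Mcm6.
Mcm5: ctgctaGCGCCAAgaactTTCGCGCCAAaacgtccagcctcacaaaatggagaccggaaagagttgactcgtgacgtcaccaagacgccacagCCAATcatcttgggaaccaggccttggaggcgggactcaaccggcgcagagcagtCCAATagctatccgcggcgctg
Mcm6: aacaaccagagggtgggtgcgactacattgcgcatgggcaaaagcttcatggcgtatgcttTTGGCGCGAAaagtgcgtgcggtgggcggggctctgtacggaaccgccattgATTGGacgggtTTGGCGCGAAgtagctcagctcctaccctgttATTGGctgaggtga

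Levels are given as log2 of 1 plus scaled reads, on which a difference of 1 is a doubling. They had been quantile normalized before deposit. Rough depth was 2700000 to 5610000 reads per library. The level of 3 reads was 1.45 to 2.30, and every one of the 45 genes stood at 5.93 or above in every library. Pluripotency markers matched the label on day 0: none of the 8 was listed at 0, and their summed level was 13.36 and 13.24 (day 0), 12.76 and 12.58 (day 2), 11.85 and 11.97 (day 4) and 10.83 (day 6). Fibroblast markers were also high on day 0. The summed level of 10 feeder fibroblast genes, none of them listed at 0 on day 0, was 14.13 and 14.31 (day 0), 10.30 and 9.75 (day 2), 8.32 and 8.22 (day 4) and 8.61 (day 6). RNA of these marker genes therefore moved with every comparison against day 0. Whether feeder cells were present when the day 0 RNA was taken is not stated, and their part in these comparisons was not tested. In bulk RNA, fewer cells of a type and less RNA per cell cannot be told apart.

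Over the course as a whole, 27 of the 45 genes changed on any day (limma F test, Benjamini-Hochberg adjusted over all genes tested), where 28.6% of all genes tested did. So did 5038 of the 11800 genes with a mean log2 level of log2 of 11 or above. The 27 were 18 of 33 mitotic genes, 5 of 7 licensing and clamp genes and 4 of 5 G1 cyclins. The day of the highest mean differed between genes. Of the mitotic genes, 18 had their highest mean on day 6, 8 had it on day 4, 7 had it on day 2 and 0 had it on day 0. Of the 7 licensing and clamp genes 6 had it on day 4, and Mcm4 had it on day 2. Among G1 cyclins, the 3 genes Ccnd1, Ccnd3 and Ccne1 were highest on day 0, and Ccnd2 and Ccne2 on day 6. Day 6 is 1 library whose levels moved with GC content, as described for that day, and no mitotic gene was called higher there than on day 4. On levels corrected for GC content, 9 mitotic genes had their highest mean on day 6, 18 on day 4, 5 on day 2 and 1 on day 0. The same count for the licensing and clamp genes was 6 on day 4 and 1, Mcm2, on day 2, and for the G1 cyclins it was 4 on day 0 and 1, Ccne2, on day 4.

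**Figure D1:**
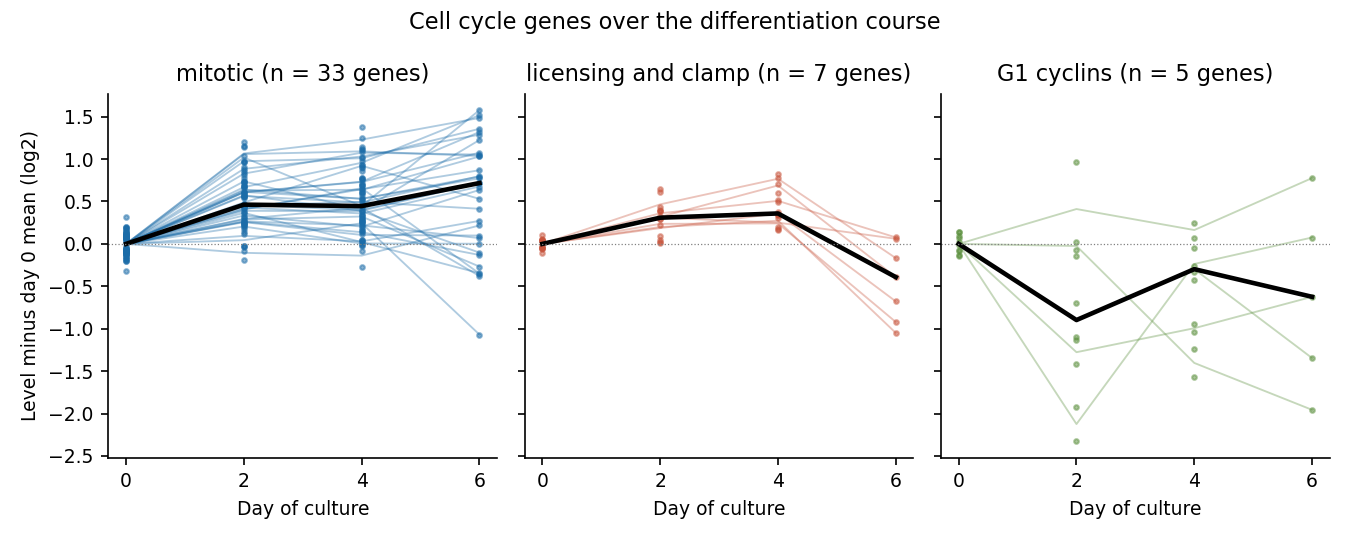
Level of each gene minus its own day 0 mean (log2, vertical axis) by day of culture, in 1 panel per group. Points are libraries, thin lines join the day means of a gene, and the black line is the median over the genes of the panel. Mitotic genes lie mostly above 0 from day 2 on, with a median of 0.46 on day 2, licensing and clamp genes drop on day 6, and the G1 cyclins take separate courses.

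Day 2 against day 0 compares the first aggregates with the feeder-grown cells they came from. Of the 45 genes, 14 changed (limma, adjusted p under 0.05), 11 higher and 3 lower, where 12% of all genes tested did (5.76% higher and 6.2% lower). The 11 that rose were all mitotic, and the 3 that fell were the D-type cyclins. The median log2 change was 0.46 over the 33 mitotic genes and 0.31 over the 7 licensing and clamp genes, against 0.05 over all genes tested and 0.14 over the 11800 genes whose mean scaled reads were about 10 or more (mean log2 level of log2 of 11 or above). The change was above 0 for 32 of 33 mitotic genes, and in 29 of them both day 2 libraries stood above both day 0 libraries. That held for 28.6% of all genes tested and for 4740 of those 11800. Of the same 11800 genes 2134 were called, 1145 higher and 989 lower.

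Mki67 encodes Ki-67, a coat of mitotic chromosomes used as the marker of proliferation (chromosome 7, 135689784 to 135716361, minus strand). It stood at 10.14 and 9.73 (day 0), 10.92 and 11.09 (day 2), 11.32 and 11.02 (day 4) and 11.42 (day 6). The day 0 libraries were the lowest, and they overlapped no later library. The rise to day 2 was 2.09-fold (log2 1.07, SE 0.17, adjusted p = 0.0124). Top2a, the other gene of chromosome structure, went from 11.64 and 11.39 to 12.08 and 12.21 (log2 0.63, adjusted p = 0.0178).

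Kinetochore and checkpoint genes were above 0 in change for 9 of 9, with 3 called. Bub1, a checkpoint kinase, stood at 9.16 and 8.92 (day 0), 10.01 and 10.19 (day 2), 9.97 and 10.29 (day 4) and 10.08 (day 6). Its later libraries all lay above both of day 0 and overlapped each other. The rise to day 2 was 2.08-fold (log2 1.06, SE 0.16, adjusted p = 0.00951). Cenpf, a large protein of the outer kinetochore, rose by 0.89 and Mad2l1, the MAD2 protein that holds back CDC20, by 0.74 (adjusted p = 0.0135 and 0.0459). Cenpa, the histone H3 variant of centromeres, moved by 1.02, short of the threshold (adjusted p = 0.0656), with levels of 6.26 and 5.93 (day 0) and 6.93 and 7.30 (day 2). The changes of the checkpoint kinase Ttk (0.57, adjusted p = 0.0576), the checkpoint protein Bub1b (0.39), the kinesin Cenpe (0.43) and the NDC80 complex subunits Ndc80 (0.64) and Nuf2 (0.46) did not pass either.

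Among the 6 genes of the midzone and cytokinesis, 3 rose. The chromokinesin Kif4 stood at 8.06 and 7.70 (day 0) and 8.79 and 8.92 (day 2) (log2 0.97, adjusted p = 0.0152). Kif23, a subunit of centralspindlin, and Prc1 each rose by 0.61 (adjusted p = 0.0282 and 0.0195). Kif20a (0.37), a midzone kinesin, Anln (0.27), an actin-binding protein of the cleavage furrow, and Ect2 (0.09), which activates the GTPase RhoA, did not pass. Ect2 overlapped between the days.

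Of the 5 Aurora, Polo and passenger complex genes, Aurkb, the kinase of the chromosomal passenger complex, rose from 7.23 ± 0.11 to 8.06 ± 0.08 (SD, n = 2 each, log2 0.83, SE 0.15, adjusted p = 0.0159). Its complex partners Incenp (0.29) and Birc5, or survivin (0.20), did not pass, nor did Aurka (0.29), the kinase of spindle poles, or Plk1 (0.41). Aurka differed between the day 2 libraries, at 9.29 and 8.67, which spanned both day 0 values of 8.79 and 8.59.

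Of the 5 spindle assembly genes, Nusap1, which stabilises spindle microtubules, rose by 0.67 (adjusted p = 0.0257). Tpx2 (0.41), Kif11 (0.33), Aspm (0.56) and Hmmr (-0.11) did not pass. Among cyclins A and B and Cdk1, only Ccna2 passed, from 9.01 and 8.89 to 9.42 and 9.70 (log2 0.61, adjusted p = 0.0327). The values were 0.49 for Ccnb2, 0.45 for Cdk1 and 0.26 for Ccnb1. The partners of the anaphase-promoting complex did not pass, at 0.04 for Cdc20 and 0.26 for Ube2c, its ubiquitin-conjugating enzyme.

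Licensing and clamp genes had changes of 0.19 (Mcm3) to 0.47 (Mcm7), all 7 above 0 and 0 called by limma. At an unadjusted p under 0.05 there were 3 of them, all higher, and limma without trend and robust moderation called 0, with 0 at an unadjusted p under 0.05. Pcna differed between the day 2 libraries, at 9.47 and 8.88, against 8.83 and 8.88 on day 0.

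The D-type cyclins fell. Ccnd2 (chromosome 6, 127125162 to 127152193, minus strand) stood at 10.64 and 10.82 (day 0), 8.81 and 8.41 (day 2), 10.68 and 10.31 (day 4) and 10.81 (day 6). Only the day 2 libraries were low, and the libraries of days 0, 4 and 6 lay together between 10.31 and 10.82. The fall to day 2 was 4.36-fold (log2 -2.12, SE 0.19, adjusted p = 0.0019). Ccnd1 (chromosome 7, 144929931 to 144939925, minus strand) stood at 10.93 and 11.20 (day 0), 9.64 and 9.93 (day 2), 10.12 and 10.03 (day 4) and 10.44 (day 6). Both day 0 libraries lay above all others, and the fall to day 2 was 2.42-fold (log2 -1.28, SE 0.15, adjusted p = 0.00421). Ccnd3 (chromosome 17, 47505051 to 47599691, plus strand) went from 8.73 and 8.60 to 7.97 and 7.57 (log2 -0.90, SE 0.17, adjusted p = 0.0219).

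Neither E-type cyclin passed. Ccne1 was level over the first step, at 9.91 and 9.87 (day 0) and 9.82 and 9.91 (day 2) (log2 -0.02). Ccne2 stood at 6.80 and 6.53 (day 0) and 6.52 and 7.63 (day 2), the widest gap between replicates of any of the 45 genes (SD 0.79, n = 2).

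All 14 called genes kept their sign in each of 16 alternatives, but much of this was fixed in advance. Filters and moderation leave the estimate as it is. The day 0 and day 2 libraries of these genes did not overlap, so leaving out 1 library could not turn the sign. The calls were less firm. Limma without trend and robust moderation called 3 of the 45 genes and 1609 of all genes tested. Most calls were lost without any 1 of the 6 libraries of days 0, 2 and 4, where far fewer of all genes passed too. In these fits the changes of the 11 mitotic genes lay between 0.47 (Ccna2) and 1.27 (Mki67). Those of the 3 D-type cyclins lay between -2.33 (Ccnd2) and -0.70 (Ccnd3).

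**Figure D2:**
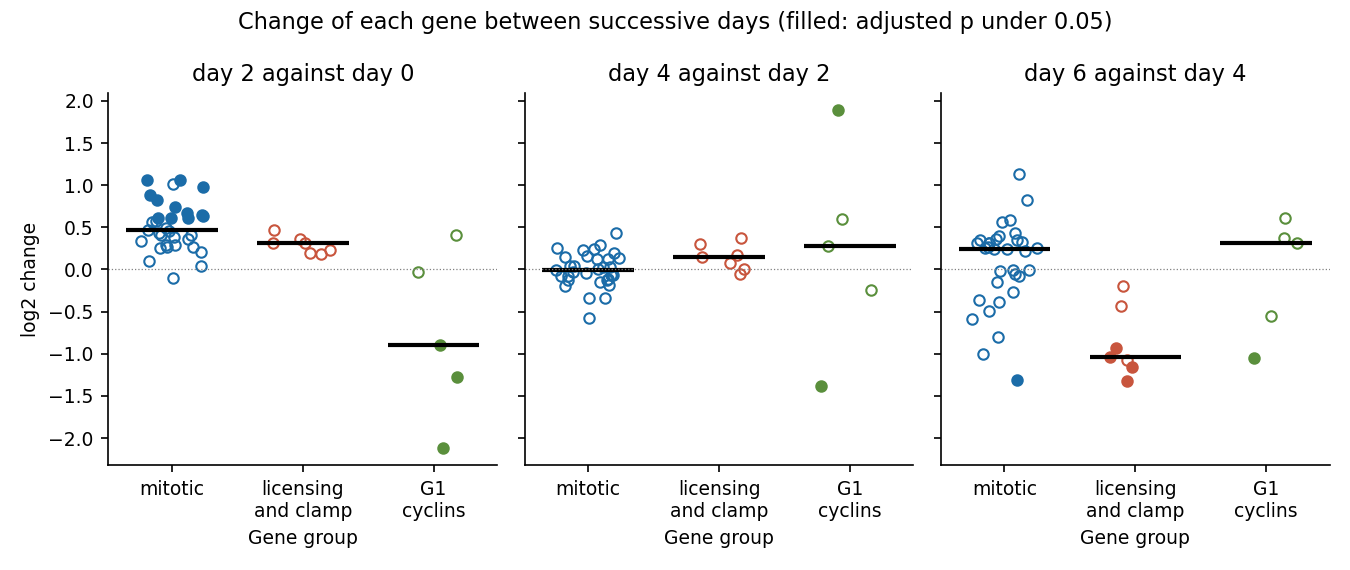
The log2 change of each gene (vertical axis) for the 3 steps between successive days, by gene group. Each circle is a gene, filled where limma's adjusted p was under 0.05, and the bar is the group's median. The filled circles are mitotic and above 0 or D-type cyclins on day 2, G1 cyclins only on day 4, and all below 0 on day 6.

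Further genes of the machinery, from lists of general knowledge, were read beside the 45. Over 44 further mitosis genes the median change in the first step was 0.50. Of them 12 were called, all higher, where 5.76% of all genes tested were called higher. The largest were Cenpk (1.67, adjusted p = 0.0421) and Cenpi (0.81, adjusted p = 0.0356, not called after the GC correction described for day 6), subunits of the inner kinetochore, Pttg1, the securin that guards sister chromatids (1.21, adjusted p = 0.0098), and Cit, the citron kinase of cytokinesis (0.88, adjusted p = 0.0483). Over 41 further replication genes the median change was 0.49. Of them 10 were called, all higher, against the same 5.76% of all genes tested. They included Cdc7, the kinase that fires origins (1.04, adjusted p = 0.0183), Chaf1b, a chromatin assembly factor (1.04, adjusted p = 0.0279), Cdc45, part of the active helicase (0.84, adjusted p = 0.0201), and Pola2, a subunit of DNA polymerase alpha (0.75, adjusted p = 0.0415). Foxm1, a transcription factor of mitotic genes, rose from 7.87 and 7.53 to 8.73 and 8.57 (log2 0.95, adjusted p = 0.017).

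CDK inhibitors moved strongly and in both directions. Of 7, 2 fell and 1 rose from day 0 to day 2, where 6.2% of all genes tested were lower and 5.76% higher. Cdkn1a, which encodes p21, stood at 10.61 and 10.91 on day 0 and then between 7.87 and 8.29 in every later library. Its fall to day 2 was 6.01-fold (log2 -2.59, SE 0.18, adjusted p = 0.000939). Cdkn2b, which encodes p15 and blocks CDK4 and CDK6, was at 7.07 and 7.38 (day 0), 3.99 and 4.44 (day 2), 2.90 and 2.94 (day 4) and 1.10 (day 6), the last below the level of 3 reads. Its fall to day 2 was 8.02-fold (adjusted p = 0.00414). Cdkn1b, which encodes p27, moved the other way, from 6.78 and 6.86 to 7.55 and 7.87, then 8.93 and 8.74, then 9.11. It rose by 0.89 to day 2 and by 1.13 to day 4 (adjusted p = 0.0207 and 0.0249). The change to day 6 was 0.27 and did not pass, and on levels corrected for GC content it was -0.19.

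Of the inhibitors with lower or uneven levels, Cdkn2a stood at 5.90 and 6.04 (day 0), 4.81 and 3.88 (day 2) and 3.29 and 0.86 (day 4), and was listed at 0 on day 6. It fell between days 0 and 4 (log2 -3.90, adjusted p = 0.0171). Cdkn1c, which encodes p57, was at 5.25 to 6.51 until day 4 and at 8.34 on day 6 (log2 1.97 against day 4, adjusted p = 0.0549, not past the threshold). On levels corrected for GC content this change was 2.98 and did pass (adjusted p = 0.0131). Cdkn2c and Cdkn2d passed in none of the 4 comparisons, on deposited or corrected levels. The estimates of Cdkn2c were still wide, at -1.90 for day 2 against day 0 and 2.30 for day 4 against day 2. In the limma F test over the days 5 of the 7 inhibitors passed, where 6232 of all genes tested did. On corrected levels 7 of 7 passed it, where 7090 of all genes tested did. The fall of Cdkn1a and Cdkn2b moved with the feeder markers, of which 8 of 10 fell in the same step, and the part of feeder cells was not tested.

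**Figure D3:**
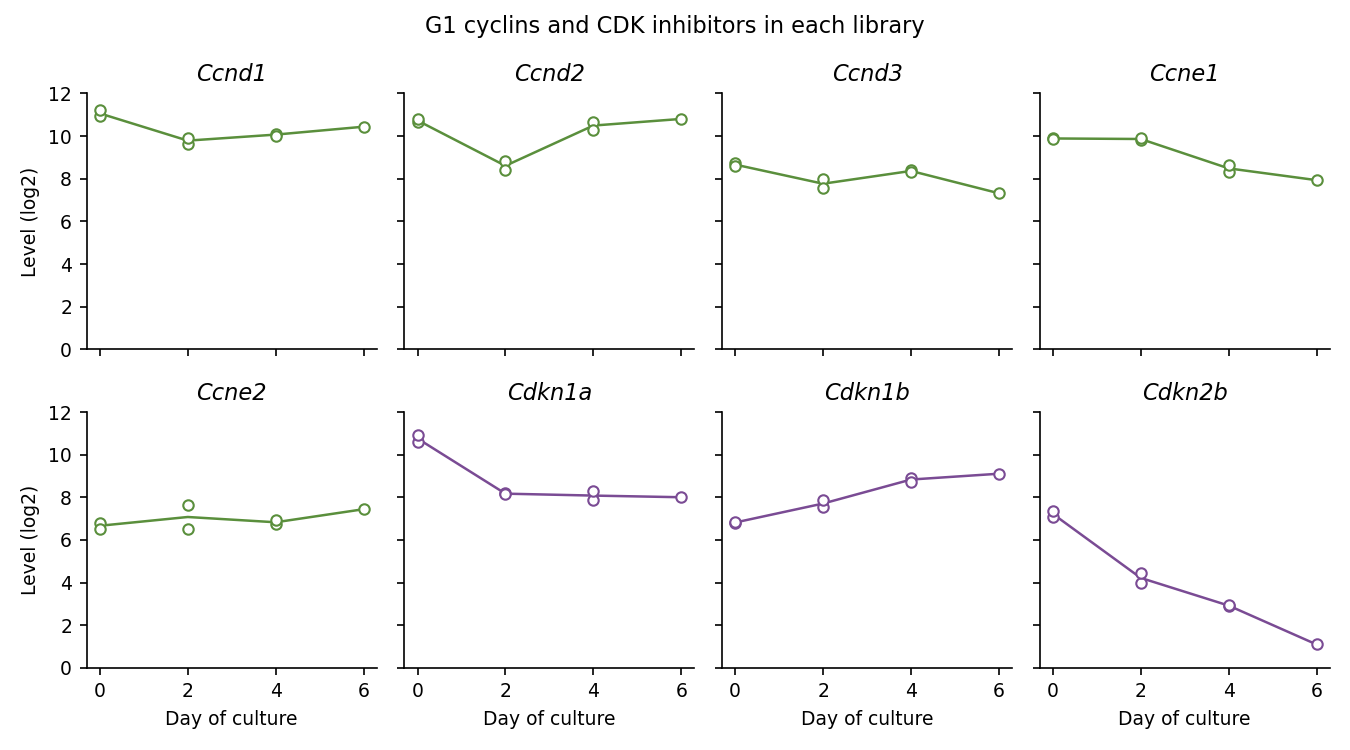
Levels (log2 of 1 plus scaled reads, vertical axis) of the 5 G1 cyclins and of 3 CDK inhibitors by day of culture. Circles are libraries and lines join the day means. Ccnd2 dips on day 2 alone, Ccne1 drops between days 2 and 4, and Cdkn1a and Cdkn1b move in opposite directions.

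The second step, induction by Noggin, Wnt3a and Activin A, was read from day 4 against day 2. It changed 2 of the 45 genes, where 3.59% of all genes tested changed (1.45% higher and 2.13% lower). Both were G1 cyclins. Ccnd2 rose back 3.70-fold (log2 1.89, SE 0.19, adjusted p = 0.00951). Ccne1, a partner of CDK2 at the entry to S phase (chromosome 7, 38097984 to 38107534, minus strand), stood at 9.82 and 9.91 (day 2), 8.32 and 8.66 (day 4) and 7.93 (day 6). Its libraries fell into a high pair on each of days 0 and 2 and lower values after, with no overlap. The fall was 2.60-fold (log2 -1.38, SE 0.15, adjusted p = 0.0106). Ccnd3 (0.60, adjusted p = 0.113) and Ccnd1 (0.28, adjusted p = 0.338) had changes above 0 that did not pass.

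The mitotic genes had a median change of -0.01 in this step, with 16 above 0 and 17 below, and a range from -0.57 (Cenpa) to 0.43 (Ccnb2). None passed in limma, 1 had an unadjusted p under 0.05, and limma without trend and robust moderation found 0 at either level. Licensing and clamp genes had a median of 0.15 and also none past the threshold, with 0 at an unadjusted p under 0.05 in either fit. Of the further genes, Racgap1, the other subunit of centralspindlin, rose by 0.61 (adjusted p = 0.0398). Orc1, a subunit of the origin recognition complex (-0.84), Rfc5, of the clamp loader (-0.71), and Pole, the leading strand polymerase (-0.69), fell (adjusted p = 0.027, 0.0339 and 0.0489). The calls were lost without any 1 of the 6 libraries of days 0, 2 and 4, where those over all genes tested were lost as well. In these fits the change of Ccnd2 lay between 1.68 and 2.09 and that of Ccne1 between -1.55 and -1.21.

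Day 4 against day 0 sums both steps and shares its libraries with them, so its values are no separate evidence. It changed 17 of the 45 genes, where 21.7% of all genes tested and 3729 of the 11800 genes of higher level changed. There were 15 higher (13 mitotic genes with Mcm6 and Mcm7), against 11.3% of all genes tested, and 2 lower (Ccnd1 and Ccne1), against 10.4%. Mki67 rose by 1.23, Bub1 by 1.09 and Aurkb by 1.08 (adjusted p = 0.00417, 0.0046 and 0.00352). Ccnb2, the second cyclin B, Plk1 and Tpx2, the activator of Aurora A at the spindle, rose here by 0.92, 0.66 and 0.64 (adjusted p = 0.0166, 0.0381 and 0.0111). Mcm7 stood at 10.49 and 10.41 (day 0), 11.10 and 10.74 (day 2) and 11.28 and 11.16 (day 4). Both day 4 libraries lay above all others, and the rise from day 0 was 0.77 (SE 0.14, adjusted p = 0.0104). Mcm6 rose by 0.51 (adjusted p = 0.0235) and the change of Pcna was 0.69 (adjusted p = 0.0558).

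Among the G1 cyclins, Ccne1 fell 2.64-fold from day 0 to day 4 (log2 -1.40, adjusted p = 0.00146) and Ccnd1 fell by 0.99 (adjusted p = 0.00501), while Ccnd2 (-0.24) and Ccnd3 (-0.30) did not pass. Of the G1 kinases Cdk4 rose by 0.57 (adjusted p = 0.0218), and Cdk2 (0.32) and Cdk6 (-0.27) did not pass. Cdkn1b rose 4.04-fold (adjusted p = 0.0007). Calls among the 45 genes mostly held without 1 library of day 2. Most were lost without 1 library of day 0 or day 4, where far fewer of all genes tested passed too. In these fits the changes of the 15 genes called higher lay between 0.40 (Mcm6) and 1.43 (Mki67). Those of the 2 called lower lay between -1.57 (Ccne1) and -0.86 (Ccnd1).

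The third step, with bFGF, was read from day 6 against day 4. Day 6 has 1 library, which was assumed to vary like those of the other days. In this step 6 of the 45 genes changed, where 4.46% of all genes tested changed. All 6 were lower, against 3.18% of all genes tested that were lower and 1.27% that were higher. They were 4 of the 7 licensing and clamp genes, Cdc20 and Ccnd3. The median change was -1.04 over the licensing and clamp genes, 0.24 over the mitotic genes and 0.00 over all genes tested.

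Mcm5 (chromosome 8, 75109569 to 75128439, plus strand), with the E2F sites printed above, stood at 10.31 and 10.22 (day 0), 10.65 and 10.28 (day 2), 10.62 and 10.46 (day 4) and 9.22 (day 6). The day 6 library lay below all 6 others. The fall was 2.50-fold (log2 -1.32, SE 0.18, adjusted p = 0.0227). Mcm2 stood at 10.17 to 10.61 in the 6 earlier libraries and at 9.31 on day 6 (log2 -1.16, adjusted p = 0.0233). Mcm3 stood at 10.33 to 10.76 and then at 9.70 (log2 -1.04, adjusted p = 0.0249). Both were lowest on day 6.

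Mcm7 went from 11.28 and 11.16 (day 4) to 10.28 (day 6) (log2 -0.93, adjusted p = 0.0404), just below its day 0 libraries. Mcm4 (-0.19, adjusted p = 0.488) and Mcm6 (-0.43, adjusted p = 0.121), at 10.42 and 10.47, did not pass. Pcna went from 9.46 and 9.63 to 8.46 (log2 -1.08, adjusted p = 0.0613) and did not pass. All 7 were below both day 4 libraries, which held for 29.1% of all genes tested and for 4728 of the 11800 genes of higher level.

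Cdc20 (chromosome 4, 118432901 to 118437352, minus strand) stood between 8.65 and 9.00 in the 6 earlier libraries and at 7.67 on day 6, a 2.48-fold fall (log2 -1.31, SE 0.18, adjusted p = 0.0222). Plk1 (-1.01, adjusted p = 0.0509) and Incenp (-0.81, adjusted p = 0.0557) were the nearest to the threshold among the other mitotic genes below 0. All 5 Aurora, Polo and passenger complex genes had changes below 0, of which Birc5 (-0.003) and Aurkb (-0.02) were close to 0. All 5 spindle assembly genes had changes above 0, from 0.22 (Tpx2) to 0.56 (Nusap1). Neither pattern held on levels corrected for GC content, as described below. There Aurkb rose, from a day 4 mean of 8.20 to 8.41. Kif11 (10.26 to 10.19), Hmmr (9.79 to 9.63) and Aspm (9.32 to 9.22) fell, and the other genes of both groups kept their sign. Of the 33 mitotic genes 19 were above 0 and 14 below. None was called higher in limma, with 6 higher and 5 lower at an unadjusted p under 0.05. The largest values above 0 were 1.13 for Cenpa (adjusted p = 0.104), 0.83 for Nuf2 (adjusted p = 0.0699) and 0.59 for Prc1 (adjusted p = 0.065). When only those 11800 genes of higher level were tested, these 3 passed as higher and 9 of the 45 as lower, where 18.6% of those genes passed.

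Ccnd3, the cyclin D gene that was lowest on day 6, went from 8.40 and 8.33 on day 4 to 7.32 (log2 -1.05, SE 0.21, adjusted p = 0.0483). Ccnd1 (0.37), Ccnd2 (0.31), Ccne1 (-0.55) and Ccne2 (0.61) did not pass in this step.

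The changes on day 6 moved with the GC content of the transcripts. Levels depended on GC content differently in each library: among 11728 genes, 10 more percentage points of GC went with -0.55 (day 6), 0.35 and 0.18 (day 4), 0.17 and -0.29 (day 2) and 0.03 and 0.11 (day 0). Over the 45 genes, which share these libraries, the change from day 4 to day 6 had a Pearson correlation of -0.73 with GC content, and over the 11728 genes of -0.53. The median change was -0.87 for the 14 genes of at least 50% GC and 0.26 for the 31 others, and all 6 calls were among the 14. The 2 day 2 libraries differed in the same way, with 12 of the 14 genes of at least 50% GC lower in replicate 2 and 24 of the 31 others higher.

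On levels corrected in each library for GC content, 8 of the 45 genes were called on day 6, all lower, where 3.81% of all genes tested were called. They were all 7 licensing and clamp genes and Cdc20. The licensing and clamp genes then had changes from -1.43 (Pcna, adjusted p = 0.029) to -0.54 (Mcm4, adjusted p = 0.0393), with a median of -0.67. Mcm5 kept most of its fall, at -1.15 (adjusted p = 0.007), while Mcm2 and Cdc20 had smaller falls than before, at -0.57 (adjusted p = 0.0399) and -0.71 (adjusted p = 0.0423).

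Ccnd3 lost its call under the same correction, at -0.12 (adjusted p = 0.714), and the mitotic median turned from 0.24 to -0.16, with 24 of 33 genes below 0. The 14 genes of at least 50% GC then had a median of -0.41 and the 31 others one of -0.15, so a smaller gap remained. The direction of the mitotic group on day 6 therefore depended on this correction. The 14 genes called for day 2 against day 0 and the 2 for day 4 against day 2 were all called under it too. In all, 16 and 3 of the 45 genes were called under it, where 15.6% and 7.19% of all genes tested were. There the median of all genes moved from 0.05 to -0.05 in the first step, and the mitotic median from 0.46 to 0.37. What gave the libraries their different GC trends was not tested.

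**Figure D4:**
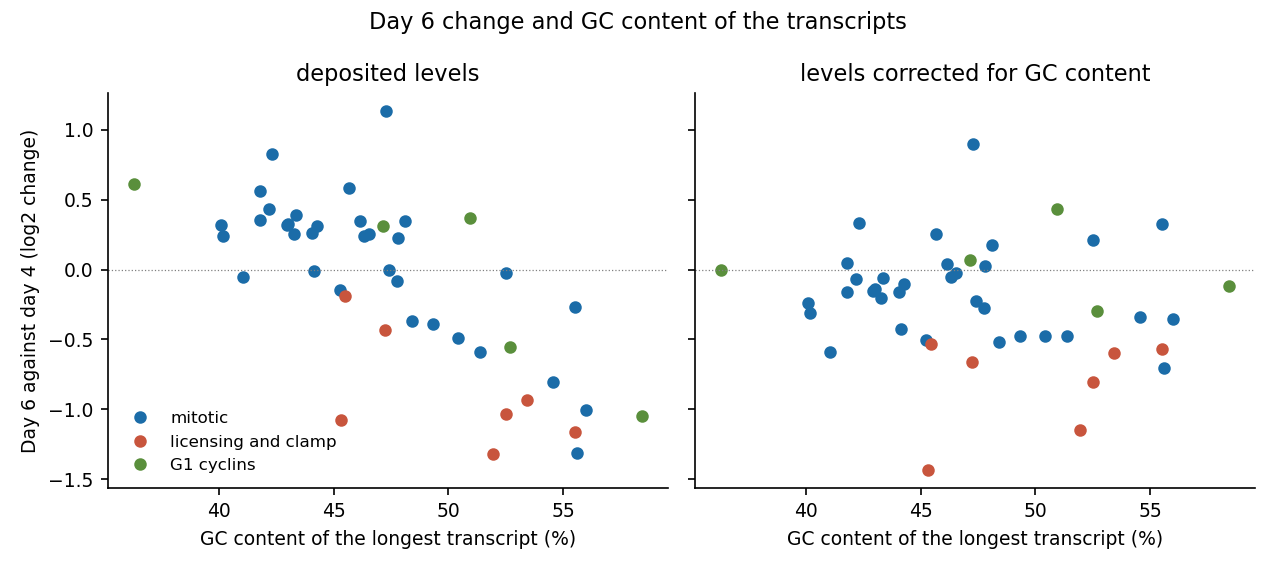
Log2 change from day 4 to day 6 (vertical axis) against the GC content of the longest transcript (percent, horizontal axis) for the 45 genes, coloured by group, before (left) and after (right) correction of each library for GC content. Pearson's correlation is -0.73 in the left panel and -0.16 in the right, where all 7 licensing and clamp genes still lie below 0, from -1.43 to -0.54.

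The day 6 calls were lost without 1 library of day 0 or day 4, where those over all genes tested were lost as well. Without 1 library of day 2 most of them held. In these fits the changes of the 6 called genes lay between -1.40 (Mcm5) and -0.87 (Mcm7). The summed level of 8 neuron markers was 10.26 and 10.10 (day 0), 9.82 and 9.84 (day 2), 11.69 and 10.63 (day 4) and 12.21 (day 6). None of them was listed at 0 on days 4 and 6. From day 4 to day 6, 7 of the 8 had changes above 0 and 0 were called, where 4.46% of all genes tested were. The part of postmitotic cells in the day 6 values was not tested.

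Some further genes of the machinery were called lower on day 6. Of the 44 mitosis genes 5 were called, all lower, where 3.18% of all genes tested were called lower. They were led by Espl1, the separase that cuts cohesin (-1.60, adjusted p = 0.0322), Kif18b (-1.14, adjusted p = 0.0459), Ncapd2, of condensin (-1.02, adjusted p = 0.0412), and Cks1b, a CDK subunit (-0.96, adjusted p = 0.0435). Of the 41 replication genes 4 were called, all lower, against the same 3.18% of all genes tested. They were Rpa2, of the single-strand binding complex (-1.04), Cdt1, which loads the MCM helicase (-1.02), Uhrf1 (-0.93) and Chaf1a (-0.87), with adjusted p from 0.0352 to 0.0498. E2f4, a repressor type E2F, fell from 9.01 and 8.93 to 7.60 (log2 -1.37, adjusted p = 0.0227) and its partner Tfdp1 by 0.79 (adjusted p = 0.0498). The pocket proteins Rb1 and Rbl2 rose by 1.16 and 1.46 (adjusted p = 0.0354 and 0.049). The G1 kinases Cdk4 (-0.60, adjusted p = 0.0752), Cdk6 (-0.56) and Cdk2 (-0.25) did not pass. After the GC correction Cdk6 passed as lower (-0.93, adjusted p = 0.0433), and Cdk4 (-0.27) and Cdk2 (-0.32) did not. On levels corrected for GC content, Espl1 (-0.93), Cks1b (-1.05), Rpa2 (-0.91), E2f4 (-0.70) and Tfdp1 (-1.14) were still called, with adjusted p from 0.0139 to 0.0353. Kif18b, Ncapd2, Ccnf, Cdt1, Uhrf1, Chaf1a, Rb1 and Rbl2 were not, among them Cdt1 at -0.06 (adjusted p = 0.888) and Rb1 at 0.63 (adjusted p = 0.153). In all, 2 of the 44 mitosis genes and 3 of the 41 replication genes were called on corrected levels, all lower. There 3.81% of all genes tested were called, and the mitosis count was close to that share.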

How the data were processed

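RNA was measured by bulk RNA-seq in 7 libraries (2 each on days 0, 2 and 4, 1 on day 6), prepared as stranded mRNA libraries per the labels' protocols. The deposited table holds natural log values of 1 plus scaled reads, a unit inferred from the values. Sorted, the 7 columns hold the same values within 0.01 for the 9896 highest ranks, so the authors deposited quantile normalized values. Per the submitters' processing notes the genome build was GRCm38. No aligner, counting tool or strand setting is given in the sources used here. All 7 columns were mapped to libraries by name.

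Values were divided by the natural log of 2. Folds are on the scale of 1 plus scaled reads. Genes at 0 in every library (8674) and 103 foreign sequences were left out. Days were compared with limma-trend and robust moderation (limma 3.58.1, R 4.3.3) in 1 fit of all libraries, with 3 residual degrees of freedom, Benjamini-Hochberg adjustment over 21813 genes and a threshold of 0.05. The labels call the replicates biological, and with 2 per day the spread is poorly known. The script was tested on simulated data. GC content is that of the longest GENCODE vM21 transcript, and the correction subtracts a lowess curve per library. Depth was read from the steps of the low values.

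All 45 genes were described, all CDK inhibitors and G1 kinases named, and up to 4 called genes with the largest change and no overlap named per further list and comparison. The genes, the lists, their roles and the motifs were chosen with earlier results of these data known. Alternatives were other scalings, filters, pseudocounts, moderation and library sets. The GC corrections and the fit without day 6 were added after the data were seen.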

Additional observations from a re-analysis of the deposited data

How the results depend on the processing

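Every call made among the 45 genes kept its sign in all alternatives that gave a value, but the number of calls did not hold. The libraries of the days compared did not overlap for any called gene, so leaving out 1 library could not turn its sign. Filters and moderation leave the estimate as it is. Limma without trend and robust moderation called 3 genes for day 2 against day 0, 0 for day 4 against day 2 and 0 for day 6 against day 4. It called 10 for day 4 against day 0 and 11 on any day. Over all genes tested, the same fit called 1609, 335, 609, 3618 and 4273 in that order. At an unadjusted p under 0.05 it had 4288 of all genes for day 4 against day 2 and 5128 for day 6 against day 4. For day 6 against day 4 the count was 12 when genes of a low mean level were left out, 12 when only genes above 0 in every library were tested, 11 on levels corrected for GC content and length, and 0 with only the libraries of both days (3732 genes at an unadjusted p under 0.05). Leaving out 1 library at a time gave 0 to 2 calls for day 2 against day 0, 0 to 0 for day 4 against day 2, 0 to 4 for day 6 against day 4, 0 to 19 for day 4 against day 0 and 0 to 23 on any day, in fits with fewer residual degrees of freedom. All of the fits without 1 library also called fewer of all genes tested. The share of calls lost was larger for the 45 genes than for all genes in some of these fits and smaller in others. The cause of these shifts was not tested. The column names share a code over replicate 1 of every day, day 6 included, and another code over replicate 2. Whether these codes pair the libraries is not stated. Differences between replicates 1 and 2 correlated at -0.06 between days 0 and 2 and -0.07 between days 0 and 4 over 11800 genes. Between days 2 and 4 the correlation was 0.22. These values cannot show that the libraries were unpaired. With the replicate number as a block in the fit the counts were 12, 2, 6, 17 and 25. Rough depth was 2700000 to 5610000 reads per library, and its effect on the calls was not tested. In the simulated comparison of day 2 with day 0, 7 of 50 genes changed by 0.5 (log2) were called and 48 of 50 changed by 1. The simulated noise was independent between genes and libraries and held no GC trend. Far fewer genes were changed in it than were called in the data. These counts therefore do not give the power of the real comparison.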

Other observations

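Genes of G1 to S control outside the 45 moved in both directions. From day 0 to day 2, 4 of 21 rose and 1 fell, where 5.76% of all genes tested were higher and 6.2% lower. The rises were E2f5 (log2 0.93, adjusted p = 0.0368), Tfdp2 (0.88, adjusted p = 0.0163), E2f7 (0.77, adjusted p = 0.0223) and E2f6 (0.61, adjusted p = 0.0386), which are E2F family members and a dimer partner. On levels corrected for GC content E2f6 was not called (0.49, adjusted p = 0.0512). Rbl2, which encodes the pocket protein p130, stood at 6.55 and 6.56 (day 0), 5.45 and 5.71 (day 2), 4.82 and 5.17 (day 4) and 6.46 (day 6), a fall of 0.98 to day 2 (adjusted p = 0.0491). From day 0 to day 4, 5 of 21 rose and 3 fell, where 11.3% of all genes tested were higher and 10.4% lower. Myc fell by 1.98 and Rbl2 by 1.56, while E2f5 rose by 1.49 and Rbl1, which encodes p107, by 1.27 (adjusted p = 0.0029, 0.00609, 0.00439 and 0.0242).

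Both main activators of mitotic genes took courses of their own. Mybl2, which encodes B-Myb, stood at 10.23 and 10.24 (day 0), 10.21 and 9.48 (day 2), 9.42 and 9.08 (day 4) and 7.25 (day 6). It fell by 0.99 from day 0 to day 4 (adjusted p = 0.0323) and by 2.00 from day 4 to day 6 (adjusted p = 0.0268), and the second of these falls was 1.30 once GC content was corrected for (adjusted p = 0.00975). Foxm1 rose by 1.34 from day 0 to day 4 (adjusted p = 0.0029) and stood at 9.15 and 8.94 (day 4) and 8.29 (day 6). Their relation to the levels of the mitotic genes was not tested.

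From day 0 to day 4 the further mitosis genes with the largest changes were Cdc25b, the phosphatase that activates CDK1 (1.83), Pttg1 (1.76), Cenpk (1.68) and Knstrn (1.43), among 13 of 44 that rose and 1, Cep55, that fell (-0.72, adjusted p = 0.0331). Of 41 further replication genes 8 rose and 3 fell, against the same 11.3% and 10.4% of all genes tested. Chaf1b (1.08), Cdc7 (1.03) and Rrm1, of ribonucleotide reductase (0.81), rose, and Orc1 fell by 0.90.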
